A study of Mus musculus with 6 samples.

Results

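The genes described here are the receptors, receptor partners and peptide ligands of 3 vascular signalling systems. They are Aplnr and Apln of the apelin system, Calcrl, Ramp1, Ramp2, Ramp3 and Adm of the adrenomedullin system, and S1pr1 and S1pr3, receptors for sphingosine 1-phosphate (S1P). They were chosen by symbol, from probe sets that the annotation of the array assigns to 1 gene only. All 9 were found, each with 1 such probe set, among 19937 genes measured. Embryos of the CD1 strain at E11.5 (embryonic day) gave the cells, from the dissected region of aorta, gonads and mesonephros (AGM), with no genotype or treatment named in the labels. The sample titles give the time as T0 for both populations. Collagenase-digested tissue was stained and sorted for CD31-positive cells without CD45 or Ter119, and these were divided by c-kit, which binds stem cell factor. Total RNA of 3 c-kit-positive and 3 c-kit-negative samples was measured on 1 array each. Replicates are named biological, with nothing on the pooling of embryos, so p-values measure the spread between these samples.

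All 3 systems act through G protein-coupled receptors that endothelial cells display. The apelin receptor answers to the peptides apelin and Apela (Elabela) and in embryos marks venous and sprouting endothelium. The calcitonin receptor-like receptor, Calcrl, reaches the cell surface only with a receptor activity-modifying protein (RAMP), and the partner sets the ligand. Ramp1 gives a receptor for the neuropeptide CGRP, whereas Ramp2 and Ramp3 give receptors for adrenomedullin, and loss of Adm, Calcrl or Ramp2 disturbs vessel and lymphatic development in mouse embryos. S1P is a lipid made by sphingosine kinases and carried in blood. S1pr1 couples to inhibitory G proteins and stabilises endothelial junctions, and S1pr3 couples more broadly in endothelium and smooth muscle.

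Values are log2 RMA values, and a difference is always c-kit-positive minus c-kit-negative. A gene is said to have risen or fallen where its p in limma, adjusted by Benjamini and Hochberg over all genes, was under 0.05. Array medians ran from 5.42 to 5.52. Kit itself, the gene of the sort, averaged 9.55 on c-kit-positive and 8.22 on c-kit-negative arrays. This difference of 1.33 checks the labels for c-kit only. Ptprc, the gene of CD45, read 8.37 to 8.60 on c-kit-positive arrays and 8.21 to 9.40 on c-kit-negative arrays. It differed by -0.24 (adjusted p = 0.689, limma) and was brighter than about 92% of genes, although the sort took cells without CD45. How these Ptprc values relate to the sort was not tested. The endothelial markers Pecam1 and Cdh5 stood at 10.02 and 11.17 in c-kit-negative cells, and at 9.13 and 6.48 in c-kit-positive cells. Pecam1 is the gene of CD31, for which cells of both populations were sorted, and it differed by -0.90 (adjusted p = 0.00597, limma). The 2 populations differed in marker lists of several cell types, given here as the sum of log2 levels over a list's measured genes, lowest to highest array. All 20 pan-endothelial markers fell (119 to 123 in c-kit-positive against 169 to 172 in c-kit-negative arrays). Of 15 mesenchymal and smooth muscle markers 7 fell (78.2 to 79.0 against 91.9 to 95.5), and of 15 macrophage markers 3 fell (84.0 to 86.6 against 91.9 to 108.5). Of 10 platelet markers 4 fell (59.1 to 61.4 against 65.6 to 76.3). Of 12 erythroid markers 3 fell and 1 rose (68.1 to 71.1 against 73.9 to 80.3). Those 3 were the globin genes Hba-x, Hbb-y and Hbb-bh1, whereas the erythroid list had a median difference of 0.06, with 6 of 12 differences negative. Of 15 germ cell markers 12 rose (116 to 118 against 97.1 to 99.3), and of 15 haematopoietic progenitor markers 6 rose (110.3 to 111.3 against 100.6 to 102.3). Of 13 gonadal and mesonephric epithelial markers 1 rose and 1 fell (75.1 to 77.4 against 73.5 to 76.2). Among all genes 4.70% fell and 2.71% rose. No scale of zero or detection call came with the table, so no marker is called absent. The part of these markers in the results below was not tested.

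Receptors of all 3 systems fell in c-kit-positive cells, while the genes of the peptide ligands did not pass the test. Aplnr, Calcrl, the adrenomedullin partner Ramp2, S1pr1 and S1pr3 fell, by 28.2-fold, 3.48-fold, 15.7-fold, 3.22-fold and 3.34-fold. The ligands Apln and Adm and the partners Ramp1 and Ramp3 did not pass that threshold. Thus 5 of 9 members fell and 0 rose, where 4.70% of all genes fell and 2.71% rose. At an unadjusted p under 0.05 in limma 6 members were lower and 0 higher, beside 1932 and 2264 of all 19937 genes. With 9 members, a count of 0 higher therefore says little. Ramp1 was the single member with a positive difference. In 6 of 9 members all c-kit-positive values lay below all c-kit-negative values, against 10.6% of all genes, and in 1 they all lay above, against 16.2%. The median difference of the members was -1.69, beside 0.07 over all genes. Since RNA of whole sorted samples was measured, fewer cells that express a gene and less of its RNA per cell cannot be told apart.

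**Figure D1:**
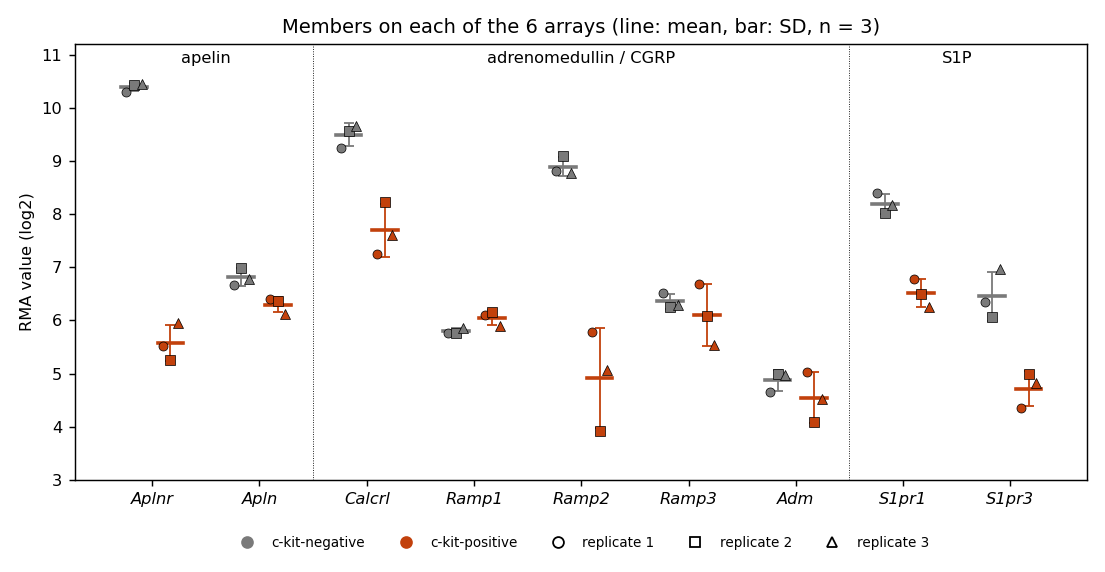
Log2 RMA value of the 9 members (y axis) on each array, with c-kit-negative arrays in grey and c-kit-positive arrays in orange, symbols for the replicate number, lines for means and bars for SD (n = 3). Aplnr and Ramp2 show the widest separation, at 10.39 against 5.57 and at 8.89 against 4.92, whereas Ramp3 and Adm overlap between populations.

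In the apelin system the receptor gene fell, and neither ligand gene passed the test. Aplnr read 10.30, 10.43 and 10.44 on c-kit-negative arrays 1, 2 and 3, and 5.52, 5.25 and 5.94 on c-kit-positive arrays 1, 2 and 3. The c-kit-negative values were tight and high, and the nearest c-kit-positive value lay more than 4 log2 units below them. The difference was -4.82 ± 0.19 (SE, adjusted p = 7.27e-06, limma), which ranked 3 among all 19937 genes from the most negative. Its SD over c-kit-negative arrays, 0.08, exceeded that of only 14.6% of genes.

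Apln, the gene of apelin, read 6.67, 6.99 and 6.77 on the c-kit-negative and 6.40, 6.36 and 6.13 on the c-kit-positive arrays. The groups did not overlap, but their gap was small. The difference was -0.52 ± 0.15 (SE), with a 95% confidence interval of -0.86 to -0.18 and an adjusted p of 0.0807 (limma), so it did not pass. Apela, the gene of the other apelin receptor ligand, was uneven among c-kit-negative arrays, at 4.37, 5.56 and 7.01, and read 4.42, 3.80 and 3.86 on c-kit-positive arrays. One c-kit-negative array lay within the range of the c-kit-positive ones, and the difference of -1.62 ± 0.56 (SE) did not pass (adjusted p = 0.136, limma). Without c-kit-negative replicate 1, the lowest of that population, Apela passed with a difference of -2.26 (adjusted p = 0.0232, limma), and without replicate 3, the highest, the difference was -0.94 (adjusted p = 0.215, limma).

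In the adrenomedullin system the receptor and 1 of its 3 partners fell. Calcrl read 9.25, 9.56 and 9.67 on c-kit-negative arrays and 7.24, 8.24 and 7.61 on c-kit-positive arrays. All c-kit-positive values were lower, with replicate 2 the closest to the other population. The difference was -1.80 ± 0.25 (SE, adjusted p = 0.00375, limma), and with 1 array left out it ran from -2.07 to -1.57 and passed in all 6 such fits.

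Ramp2, the partner that vessel development requires, read 8.81, 9.10 and 8.78 on c-kit-negative arrays and 5.78, 3.92 and 5.06 on c-kit-positive arrays. Every c-kit-positive value lay far below the other population, and they spread widely among themselves. Their SD of 0.94 was larger than that of 99.5% of genes. The difference was -3.97 ± 0.40 (SE, adjusted p = 0.00074, limma), rank 13 of 19937 from the most negative, and it was -3.47 without c-kit-positive replicate 2, the lowest array. On the c-kit-positive arrays Calcrl and Ramp2 took opposite orders, with replicate 2 the highest for Calcrl and the lowest for Ramp2, and replicate 1 the reverse. A further probe set, which the annotation assigns to both Malat1 and Ramp2, was left out by the rule on single genes.

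Ramp1, the partner for CGRP, read 5.77, 5.76 and 5.86 on c-kit-negative arrays and 6.10, 6.15 and 5.90 on c-kit-positive arrays. The c-kit-positive values were all higher, by little. The difference was 0.25 ± 0.13 (SE), with an interval of -0.06 to 0.56 (adjusted p = 0.337, limma). Ramp3, the second adrenomedullin partner, read 6.52, 6.26 and 6.29 on c-kit-negative and 6.69, 6.07 and 5.54 on c-kit-positive arrays. The c-kit-positive arrays spanned the other population. Its difference was -0.26 ± 0.27 (SE, interval -0.86 to 0.35, adjusted p = 0.648, limma), and the sign turned without c-kit-positive replicate 3, at 0.026.

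Adm, the gene of the ligand adrenomedullin, read 4.65, 4.99 and 4.97 on c-kit-negative arrays and 5.04, 4.09 and 4.51 on c-kit-positive arrays. The highest and the lowest value both belonged to c-kit-positive arrays. The difference was -0.32 ± 0.24 (SE, interval -0.86 to 0.22, adjusted p = 0.498, limma). At this spread an interval that reaches -0.86 does not show that Adm was alike in the populations.

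Both S1P receptors among the members fell. S1pr1, the receptor that steadies endothelial junctions, read 8.39, 8.02 and 8.17 on c-kit-negative arrays and 6.77, 6.50 and 6.25 on c-kit-positive arrays. The populations stood clearly apart, and the difference was -1.69 ± 0.18 (SE, adjusted p = 0.000896, limma). S1pr3 read 6.35, 6.06 and 6.96 on c-kit-negative arrays and 4.34, 4.99 and 4.81 on c-kit-positive arrays. It too showed no overlap, with more spread in both populations, and differed by -1.74 ± 0.26 (SE, adjusted p = 0.00505, limma). In the fits that left out 1 array the differences ran from -1.82 to -1.56 for S1pr1 and from -1.94 to -1.49 for S1pr3, and both passed in all 6 fits.

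Among the members, the profiles of Calcrl and S1pr3 over the 6 arrays lay closest to each other, with a root mean square distance of 0.28 log2 units after each gene was centred on its own mean. These are also the members that fell and have an entry in the RefSeq promoter table of build GRCm38.p6, which matched 6 of 9 members. Aplnr, Ramp2 and S1pr1 had none. The 250 bases before the start that this table uses are shown 5′ to 3′ for this pair, and for Ramp1 and Adm as members that did not pass. For Calcrl that start lies within the RefSeq gene span, whose outer end is farther upstream, so 139 of the 250 bases shown are inside the annotated gene. The other 3 printed windows lie wholly outside their genes. Capitals mark GGAAG or its reverse complement CTTCC, the core that ETS factors bind, and ACGTG or GCGTG and their reverse complements CACGT and CACGC, the core of hypoxia response elements.
Calcrl (chr2:84425267-84425516, reverse strand): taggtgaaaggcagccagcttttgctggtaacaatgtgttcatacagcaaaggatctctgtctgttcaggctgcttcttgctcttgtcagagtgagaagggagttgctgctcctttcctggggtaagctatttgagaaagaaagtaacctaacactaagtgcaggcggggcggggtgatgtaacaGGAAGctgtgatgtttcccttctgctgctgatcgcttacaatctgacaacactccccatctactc
S1pr3 (chr13:51408368-51408617, forward strand): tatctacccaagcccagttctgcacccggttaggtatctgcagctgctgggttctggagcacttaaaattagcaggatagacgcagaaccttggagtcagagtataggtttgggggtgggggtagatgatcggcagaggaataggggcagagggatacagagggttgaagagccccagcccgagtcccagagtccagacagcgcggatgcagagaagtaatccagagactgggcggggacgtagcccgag
Ramp1 (chr1:91179572-91179821, forward strand): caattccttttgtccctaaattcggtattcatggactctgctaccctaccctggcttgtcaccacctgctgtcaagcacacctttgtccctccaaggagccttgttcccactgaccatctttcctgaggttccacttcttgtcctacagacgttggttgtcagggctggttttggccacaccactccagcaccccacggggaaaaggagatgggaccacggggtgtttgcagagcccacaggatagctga
Adm (chr7:110627407-110627656, forward strand): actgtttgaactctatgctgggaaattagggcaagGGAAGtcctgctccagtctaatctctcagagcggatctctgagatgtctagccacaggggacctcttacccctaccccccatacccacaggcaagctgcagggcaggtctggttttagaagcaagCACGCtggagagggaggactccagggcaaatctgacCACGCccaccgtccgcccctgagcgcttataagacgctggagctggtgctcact

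Of the pair that fell, Calcrl held 1 ETS core, which began 65 bases before the start used by the table and thus inside the annotated gene, and S1pr3 held 0. Ramp1, which had the opposite sign, held 0 of either core. Adm held 1 ETS core and 2 hypoxia cores, the latter 90 and 54 bases before the start. Of the other 2 members with an entry, Apln held 3 ETS cores and 0 hypoxia cores, and Ramp3, with 27 of 250 bases inside its gene span, held 3 and 2. Both strands were searched, and the cores of the 2 kinds share no letters in the 4 printed sequences. In 32851 promoter windows of the same length, 64.1% held an ETS core and 38.6% a hypoxia core, so 1 match is common. Calcrl, S1pr3, Adm, Apln and Ramp3 held the GC box GGGCGG or its reverse complement, as did 32.7% of all windows, and Ramp1 did not. A match describes letters only.

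Ratios between 2 members within an array were compared to see whether receptors and partners changed unequally. Of 7 pairs, 5 had c-kit-positive and c-kit-negative values that did not overlap, which gives the smallest p that 3 against 3 arrays allow (0.1, exact permutation test, two-sided, 0.14 adjusted over the 7 pairs). The design therefore cannot pass 0.05 here. The ratio of Aplnr to Apln changed by -4.30 ± 0.28 log2 units (SE) from c-kit-negative to c-kit-positive arrays, and that of Calcrl to Adm by -1.48 ± 0.56. The ratio of Ramp2 to Ramp1 changed by -4.23 ± 0.58 and that of Ramp2 to Ramp3 by -3.72 ± 0.53, and in both the c-kit-positive arrays all lay below the c-kit-negative ones.

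Of the 5 pairs without overlap, that of Calcrl to Ramp2 was the one with a positive change, 2.17 ± 0.85 log2 units (SE). That change rested unevenly on the arrays: it was 0.86, 3.72 and 1.94 in replicates 1, 2 and 3 against the c-kit-negative mean, and it was 2.83 without c-kit-positive replicate 1 and 1.40 without c-kit-positive replicate 2. Ramp1 to Ramp3 changed by 0.51 ± 0.30, with overlap (exact permutation p = 0.3). S1pr1 to S1pr3 changed by 0.05 ± 0.41 (exact permutation p = 1). The arrays of both populations were mixed in that ratio, and its sign turned without c-kit-negative replicate 3 (-0.21) or c-kit-positive replicate 1 (-0.27).

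**Figure D2:**
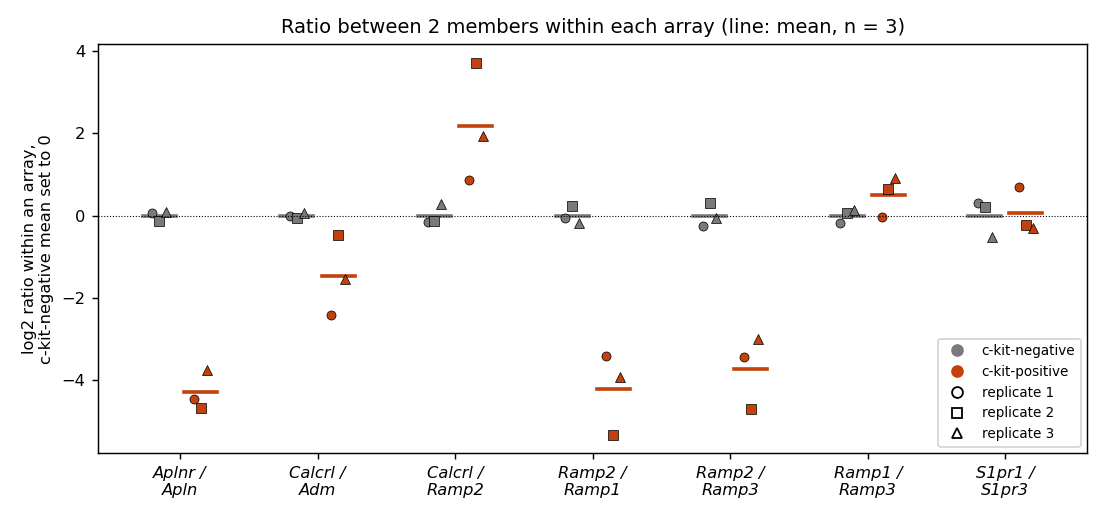
Log2 ratio between 2 members within each array (y axis), with the mean of the c-kit-negative arrays set to 0; grey marks c-kit-negative and orange c-kit-positive arrays, symbols the replicate number and lines the means (n = 3). The ratios of Aplnr to Apln and of Ramp2 to Ramp1 or Ramp3 lie at -3.01 or lower on every c-kit-positive array, and those of S1pr1 to S1pr3 overlap.

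The other genes that make, carry, sense or break down these ligands were listed as well. Of 30 listed, 29 were measured, 6 fell and 1 rose, with a median difference of -0.02 beside 0.07 over all genes. Of all genes, 4.70% fell and 2.71% rose. In the adrenomedullin and CGRP list 3 of 9 further genes fell and 0 rose. At an unadjusted p under 0.05 (limma) 4 were lower and 0 higher, beside 1932 and 2264 of all 19937 genes. With 9 genes, a count of 0 higher therefore says little. Ackr3, an atypical chemokine receptor that also takes up adrenomedullin, read 5.84, 5.22 and 5.64 on c-kit-negative and 4.28, 4.23 and 3.69 on c-kit-positive arrays. These groups stood apart, by -1.50 ± 0.22 (SE, adjusted p = 0.00457, limma). Mme, or neprilysin, a protease that cleaves many peptides, was 2.25-fold lower (adjusted p = 0.0119, limma). Ackr3 and Mme were both among the dimmest 30 percent of genes, so fits without those genes do not hold them. Mme lost its call with every probe set tested (adjusted p = 0.0582, limma). Without variance moderation neither passed, at 0.102 for Ackr3 and 0.132 for Mme. Gpr182, an endothelial receptor once proposed to bind adrenomedullin, was 2.74-fold lower (adjusted p = 0.0304, limma).

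The call for Gpr182 was lost in 4 of 6 fits with 1 array left out, namely without c-kit-negative replicate 2 or 3 or c-kit-positive replicate 1 or 3, at adjusted p of 0.0541 to 0.0976 (limma). Pam, the enzyme that amidates adrenomedullin, stood at 6.27 ± 0.41 against 6.97 ± 0.19 (SD, n = 3 each) and did not pass (adjusted p = 0.102, limma). The peptide genes Adm2, Calcb and Iapp differed by 0.12, 0.13 and 0.13, the calcitonin receptor Calcr by 0.15 and the CGRP receptor component Crcp by 0.28. None of these 5 passed.

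**Figure D3:**
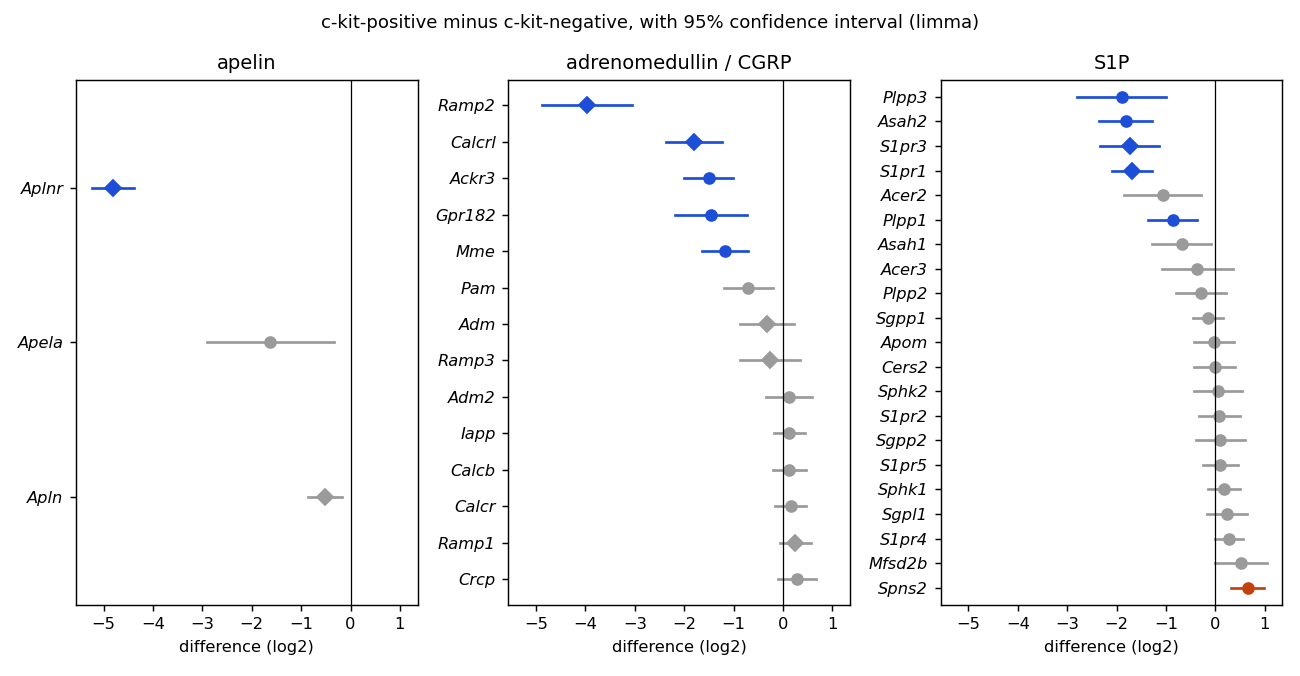
Difference in log2 RMA value, c-kit-positive minus c-kit-negative (x axis), for each measured gene of the 3 systems, with the 95% confidence interval from limma; diamonds are the 9 members, blue marks genes that fell, orange genes that rose and grey those that did not pass. Aplnr at -4.82 and Ramp2 at -3.97 lie farthest to the left, the members S1pr3 and S1pr1 lie beside Plpp3 and Asah2, and Spns2 at 0.65 is the gene in orange.

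In the S1P list 3 of 19 further genes fell and 1 rose, where 4.70% of all genes fell and 2.71% rose. Asah2, a ceramidase that frees sphingosine, read 7.41, 7.48 and 6.94 on c-kit-negative and 5.25, 5.19 and 5.93 on c-kit-positive arrays. The populations stood apart, by -1.82 ± 0.24 (SE, adjusted p = 0.00267, limma). Plpp3 and Plpp1, surface phosphatases that degrade S1P and related lipids, were 3.71-fold and 1.82-fold lower (adjusted p = 0.0243 and 0.0489, limma). Spns2, the transporter by which endothelium releases S1P, was the gene that rose: it read 6.32, 6.19 and 6.23 on c-kit-negative and 6.77, 6.82 and 7.10 on c-kit-positive arrays. Its values did not overlap between populations, which differed by 0.65 ± 0.14 (SE, adjusted p = 0.0296, limma).

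The calls of Plpp3, Plpp1 and Spns2 were lost in most fits with 1 array left out. There Plpp3 passed in 2 of 6 fits, Plpp1 in 1 and Spns2 in 1; adjusted p values of the fits that did not pass ran up to 0.0821, 0.147 and 0.0918 (limma). Plpp3 passed only without c-kit-negative replicate 3 or c-kit-positive replicate 3, Plpp1 only without c-kit-negative replicate 1, and Spns2 only without c-kit-positive replicate 1. Asah2 passed in all 6 of these fits and kept its call in 17 of all 18 other settings. With all arrays, Plpp1 was also lost with arrays centred on their medians or quantile normalized (adjusted p = 0.0533 and 0.0580, limma), with array weights (0.0569), with the dimmest probe set of each gene (0.0506) and with the replicate number as a block (0.0707). Spns2 was also lost with that block (0.0603) and with the robust prior that follows intensity (0.0524). The 3 calls were lost as well with all probe sets tested, at 0.102 for Plpp3, 0.144 for Plpp1 and 0.0824 for Spns2, and without variance moderation, at 0.209, 0.217 and 0.0983. The remaining S1P receptors did not pass, with differences of 0.08 for S1pr2, 0.28 for S1pr4, a leukocyte receptor, and 0.10 for S1pr5. The sphingosine kinases Sphk1 and Sphk2 differed by 0.17 and 0.05, and Sgpl1, the lyase that ends S1P signalling, by 0.24, none past the threshold. Mfsd2b, the exporter of S1P in red cells and platelets, stood at 6.68 ± 0.10 against 6.16 ± 0.48 (SD, n = 3 each) and did not pass (adjusted p = 0.242, limma).

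Of 26 measured genes that couple or silence such receptors, 7 fell and 1 rose, with a median difference of -0.32. Falls made up 4.70% and rises 2.71% of all genes. The G protein subunits Gng11, Gna11 and Gnai2 were 5.62-fold, 2.10-fold and 1.83-fold lower (adjusted p = 9.47e-05, 0.00704 and 0.0101, limma). Adcy4, an adenylyl cyclase of the cAMP arm through which Calcrl signals, was 4.21-fold lower, and Grk5, a kinase that desensitises receptors, 2.46-fold lower. Rgs3, which shortens G protein signals, was 1.96-fold lower, and its relative Rgs16 was 1.93-fold higher. Rgs3 passed in 1 of 6 fits with 1 array left out (without c-kit-positive replicate 3) and Rgs16 in 2 (without c-kit-negative replicate 2 or c-kit-positive replicate 3). The arrestins did not pass: Arrb2 differed by 0.51 (adjusted p = 0.139, limma) and Arrb1 by -0.48 (adjusted p = 0.254, limma).

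Other receptor systems of vessels gave 8 falls and 0 rises among 29 measured genes (median -0.17). Of all genes, 4.70% fell and 2.71% rose. At an unadjusted p under 0.05 in limma 11 were lower and 1 higher, beside 1932 and 2264 of all 19937 genes. With 29 genes, a count of 0 rises therefore says little. The adhesion receptor Adgrf5 was 13.6-fold lower and the lysophosphatidic acid receptors Lpar4 and Lpar6 were 9.57-fold and 4.17-fold lower. In the endothelin system 3 genes fell, with its ligand Edn1 4.34-fold, its converting enzyme Ece1 4.77-fold and its receptor Ednrb 6.02-fold lower. Those 6 passed in every fit with 1 array left out, whereas F2r, also among the 8 falls (1.46-fold lower), passed in none of them. Adgrl4, a further adhesion receptor of the list, differed by 0.05 and did not pass (adjusted p = 0.908, limma). Within the lysophosphatidic acid family Lpar1, Lpar2 and Lpar3 differed by -0.01, -0.04 and 0.0038 and did not pass. On the same arrays the summed pan-endothelial markers stood at 119 to 123 against 169 to 172.

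Adm and Apln are known targets of hypoxia-inducible factors, so further hypoxia genes were listed. Of 16 measured, 3 fell and 1 rose (median -0.06), beside 4.70% and 2.71% of all genes. The glucose transporter Slc2a1 was 2.52-fold lower, the factor Epas1, also made by endothelium, 3.96-fold lower and the collagen hydroxylase P4ha1 2.16-fold lower. Higd1a, a mitochondrial protein, was 1.55-fold higher (adjusted p = 0.044, limma). Its rise was lost under both other array normalizations, with the replicate number as a block (adjusted p = 0.0624, limma) and in 5 of 6 fits with 1 array left out (all but the one without c-kit-negative replicate 3), and with its dimmer probe set the difference was 0.03. P4ha1 did not pass without c-kit-positive replicate 1 or 3 (adjusted p = 0.0585 and 0.0576, limma). Vegfa, another classic target, differed by 0.29 and did not pass (adjusted p = 0.406, limma).

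**Figure D4:**
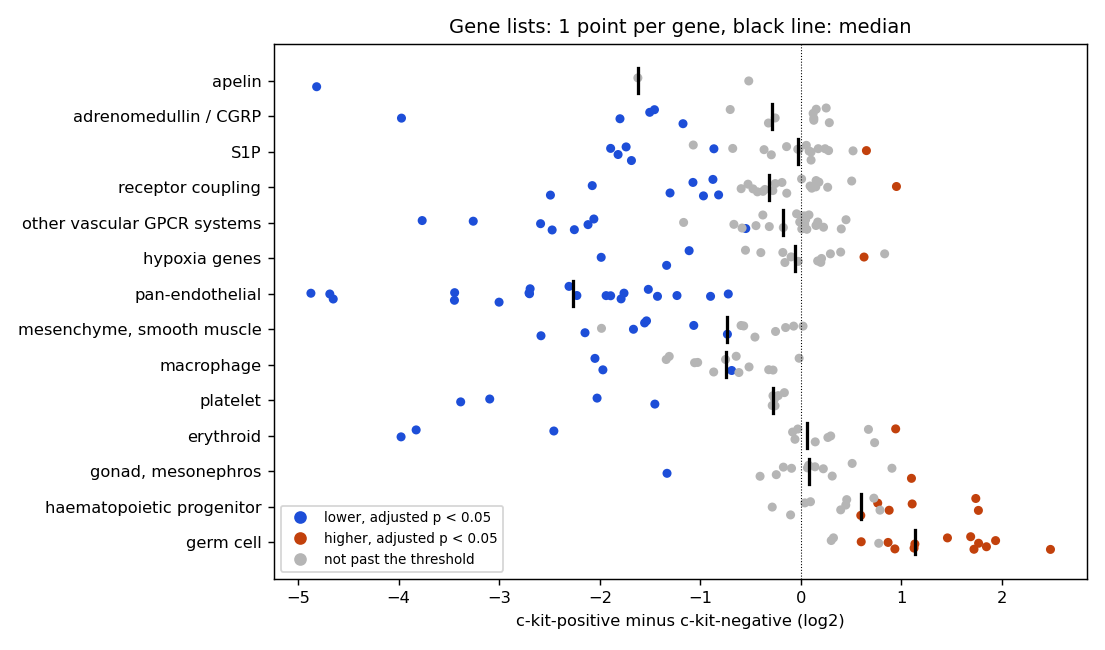
Difference in log2 RMA value, c-kit-positive minus c-kit-negative (x axis), with 1 point per measured gene of each list, members included; blue and orange mark genes lower and higher at an adjusted p under 0.05, grey the rest, and black lines the medians. Aplnr at -4.82 and Ramp2 at -3.97 lie far to the left in their lists, the S1P list has a median of -0.03, and all 20 pan-endothelial markers lie to the left of 0.

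Genes with the profile nearest to each member were named by the root mean square distance of centred log2 values over the 6 arrays. These arrays belong to only 2 populations, so a gene near a member has a similar difference. Whether the genes named here fell thus follows from how they were chosen and is not a separate result. Nearest to Aplnr were Klhl4, the imprinted gene Mest and Cdh5, which encodes VE-cadherin, at 0.24, 0.26 and 0.29. Calcrl lay nearest to Esam, an endothelial adhesion molecule, Zfp423 and Pcdhb17 (0.15, 0.16 and 0.18). Ramp2 lay nearest to Ldb2, the phagocyte oxidase gene Cybb and the matrix proteoglycan gene Vcan (0.33, 0.42 and 0.44). These genes all fell.

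S1pr1 lay nearest to the transcription factor gene Nfia, Hdac9 and Ackr3 (0.08, 0.13 and 0.15), and S1pr3 to the platelet and endothelial gene Mmrn1, Armcx2 and the smooth muscle actin gene Acta2 (0.15, 0.16 and 0.18), all of which fell. The nearest genes of the 4 members that did not pass lay at 0.02 to 0.11. For these members the median distance to all genes was also small, at 0.25 to 0.44, against 0.91 to 2.46 for the members that fell. They were Pnmal2, Mfhas1 and Mtss1 for Apln, Amz1, Prl6a1 and Lig1 for Ramp1, Spr, Rfx3 and Cnot6l for Ramp3, and Rpl29, Cyp26a1 and Secisbp2l for Adm. Mtss1 fell, by 0.53 on the log2 scale (adjusted p = 0.0464, limma), and the other 11 did not pass.

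Under 18 other settings the signs of 8 members held wherever they were kept, and that of Ramp3 turned in 1. Only median centring, quantile normalization, array weights and leaving out 1 array could move a member's difference. The remaining settings change only the test or the genes tested, so there a sign could not turn. Aplnr passed in all 18, with differences from -5.00 to -4.66. The other members that fell passed in every setting that kept them except the linear model without variance moderation, at adjusted p of 0.103 for Calcrl, 0.0709 for Ramp2, 0.0524 for S1pr1 and 0.115 for S1pr3. S1pr3 was not among the genes kept when the dimmest 50 percent were left out. Apln came no closer to the threshold than an adjusted p of 0.0647.

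**Figure D5:**
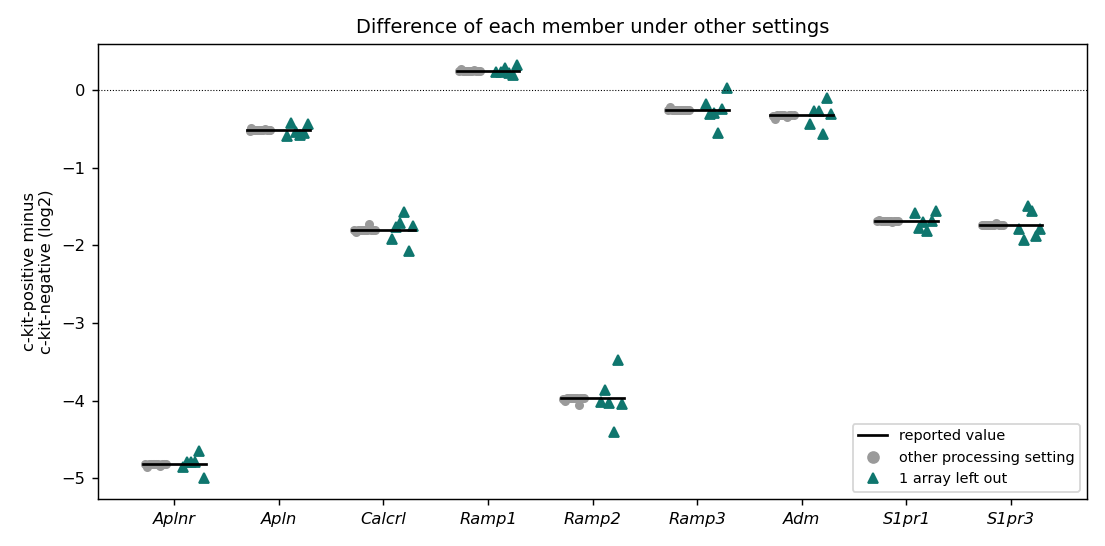
Difference in log2 RMA value, c-kit-positive minus c-kit-negative (y axis), of each member as reported (black line), under other processing settings (grey points) and with 1 array left out (green triangles). Ramp2 moves most among members that fell, from -4.40 to -3.47, and Ramp3 crosses 0 in 1 fit, at 0.026.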

How the data were processed

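The authors deposited a table on the log2 scale, made with RMA, as the submitters' processing notes name it; RMA corrects background, equalises arrays and summarises probes into probe sets. Neither its version nor its settings are stated in the sources used here. RNA was amplified from 5 ng per sample with a NuGEN whole-transcript kit, per the labels' protocols, which can distort ratios between transcripts; array background compresses folds of dim genes. Of 34760 probe sets, 21640 had 1 symbol, 1321 several and 11799 were not listed; the brightest probe set by mean stood for each of 19937 genes. Symbols were matched by Entrez identifier to the RefSeq table for 21553 probe sets.

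The 6 arrays, 3 per population, were fitted in limma 3.58.1 under R 4.3.3 (lmFit, eBayes, two-sided, neither filtered nor blocked). P-values were adjusted over all genes by the Benjamini-Hochberg method, at 0.05. SE and intervals come from limma. Ratios between members were tested by exact permutation. The fitting script was tested on simulated data. Same-numbered arrays were not paired, since their deviations correlated at 0.00071, 0.024 and 0.059. Precision is limited by the number of arrays.

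Members and lists were chosen with earlier results of these data known, so counts over them are descriptions. Named are the members, up to 6 genes past the threshold per list and direction by smallest p, other genes of the 3 systems as values, and the 3 genes nearest to each member, leaving out numbered gene models and small RNAs. Arrb1, Arrb2, Vegfa, Lpar1, Lpar2, Lpar3, F2r and Adgrl4 were added after their values were seen. In all, 18 listed genes were not analysed here. Promoter sequences are from RefSeq, build GRCm38.p6. Figures were drawn with matplotlib 3.10.9.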

Additional observations from a re-analysis of the deposited data

How the results depend on the processing

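Results were recomputed with arrays centred on their medians or quantile normalized, without the dimmest 30 or 50 percent of genes, with other choices among probe sets or all of them, with array weights, with a robust prior that follows intensity, without variance moderation, with a replicate block, at an adjusted p under 0.01, and without each array in turn. The count of 5 members that fell kept within 1.5 times in 17 of 18 of them; without variance moderation 1 fell. With 1 array left out it stayed at 5. No member rose in any of the 18, and the replicate block changed no member's call. Of the 100 measured pathway genes that are not members, 24 fell and 3 rose, where 4.70% of all genes fell and 2.71% rose. The falls were 15 with all probe sets, 4 without variance moderation and 15 at an adjusted p under 0.01, and from 17 to 24 with 1 array left out. The rises were 0, 0 and 0 under those 3 settings, 1 with the replicate block, and 0 to 2 with 1 array left out. Calls over the whole array dropped under those 3 settings too. There, 937 falls and 540 rises became 642 and 202 (of 34760 probe sets), 216 and 66, and 499 and 131. Of 159 single-member values under alternatives, 154 kept direction and call, though many of these settings leave the difference itself unchanged. The difference of Ramp3 ran from -0.55 to 0.026 with 1 array left out and reversed without c-kit-positive replicate 3. The change in the ratio of S1pr1 to S1pr3 ran from -0.27 to 0.23 with 1 array left out, so it reversed, at -0.21 without c-kit-negative replicate 3 and -0.27 without c-kit-positive replicate 1. The causes were not tested. Of the members, Adm was removed by both filters on dim genes and S1pr3 by the stricter one, so they have no value there. No detection calls came with the values, so how far dim levels such as those of Adm, or of Ramp2 in c-kit-positive cells, stand above background was not tested.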
